A study of Rattus norvegicus with 14 samples.

Results

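The comparison described here asks which genes answered pioglitazone differently in a thyroid cell line that carries the PAX8-PPARG fusion protein (PPFP) than in the same line without it. It used the 12 RNA libraries of the 14 samples of the study, which are all columns of the count table, and the other 2 samples (a chromatin precipitation and its input) were not used here. For each of 10482 genes with enough reads, the log2 fold change of PPFP cells with versus without pioglitazone was set against the log2 fold change of EV cells with versus without pioglitazone. The difference in response, PPFP cells minus EV cells on the log2 scale, is given in parentheses after a gene unless another quantity is named, and is positive where the drug raised a gene more, or lowered it less, in PPFP cells. The responses of the lines share no libraries.

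All cells were PCCL3 cells, a rat thyroid follicular line. PPFP cells carry the human fusion stably, marked by a 3xMyc tag, and EV cells carry only the empty vector. Each line received 1 μM pioglitazone or its DMSO vehicle for 16 hours, and all dishes had serum, thyrotropin, insulin, transferrin and hydrocortisone in the medium. Whether either line is a single clone or a pool is not given in the sources used here, so the lines differ by PPFP and by anything else that separates these transfected lines. PPARG is a nuclear receptor that pairs with RXR on DNA and turns on genes of fat storage and fat burning when it binds a ligand, and pioglitazone, a drug for diabetes, is such a ligand. PPFP, found in a subset of thyroid follicular carcinomas, joins most of the thyroid transcription factor PAX8 to PPARG and keeps the DNA binding regions of both and the ligand pocket. Levels are given as CPM, the count of a gene scaled to its library's TMM-adjusted total, for replicates 1, 2 and 3. EV cells keep their own Pparg, which was low: it stood at 1.79, 1.81 and 1.20 CPM without and 1.52, 2.83 and 1.33 CPM with the drug. Reads on Pparg stood at 46.9, 60.4 and 55.2 CPM in PPFP cells without and 50.8, 59 and 61.7 CPM with it (counts by rat gene symbol cannot tell the cells' own transcript from that of the fusion). The difference in response of Pparg was -0.15 (SE 0.19, n = 3 pairs per line), with an adjusted p of 0.591 in edgeR's quasi-likelihood test.

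Each of the 4 groups had 3 libraries, and total counts on genes ran from 23724703 to 35240176 per library. Libraries with the same number within a line were treated as a pair, so that the response of a line was read within pairs. The p-values therefore measure the spread between these pairs, from 3 independent experiments. The cells carried thyroid transcripts in every library: Tg, the thyroid hormone precursor, was between 6464 and 12127 CPM, and Slc5a5, Tshr, Pax8 and Nkx2-1 were all tested. Of 18 markers of macrophages, fibroblasts, endothelium and C cells in the table, 14 had at most 3 counts in every library and only Pdgfra, Col1a1 and Cd68 were tested. None of these 3 passed the test of the difference. Their list summed to between 23 and 25 CPM in EV cells and between 21.3 and 36 CPM in PPFP cells. The measurements are of bulk RNA, in which fewer cells with a transcript and less of it per cell cannot be told apart.

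Most of the called differences were changes of PPFP cells. With an adjusted p under 0.05 and a difference above 2-fold as limits, 269 genes (2.57% of those tested) differed in response, 102 (0.973%) more positive and 167 (1.59%) more negative in PPFP cells. At any fold the adjusted p was under 0.05 for 3594 genes (34.3%), 1802 (17.2%) more positive and 1792 (17.1%) more negative. Among the 269 genes the log2 fold change had a median size of 1.24 in PPFP cells but 0.0967 in EV cells, against 0.154 and 0.0417 over all genes tested. The response of PPFP cells by itself passed the test for 266 of the 269, and that of EV cells for 0 of them (31 at an unadjusted p under 0.05). In PPFP cells 233 of the 269 passed and changed more than 2-fold. In 11 of the 269 the change in EV cells was larger in size than that in PPFP cells. In 240 of the 269 (89.2%) the response of EV cells was below 0.5 in size, and in 130 (48.3%) it had the same sign as that of PPFP cells. The log2 ratios of the 3 pairs of one line did not overlap those of the other in 4991 (47.6%) of all genes tested, and in 259 of the 269 genes, which the call on the same ratios selects for. The shares of 17.2% and 17.1% are the background of every count of list members.

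**Figure D1:**
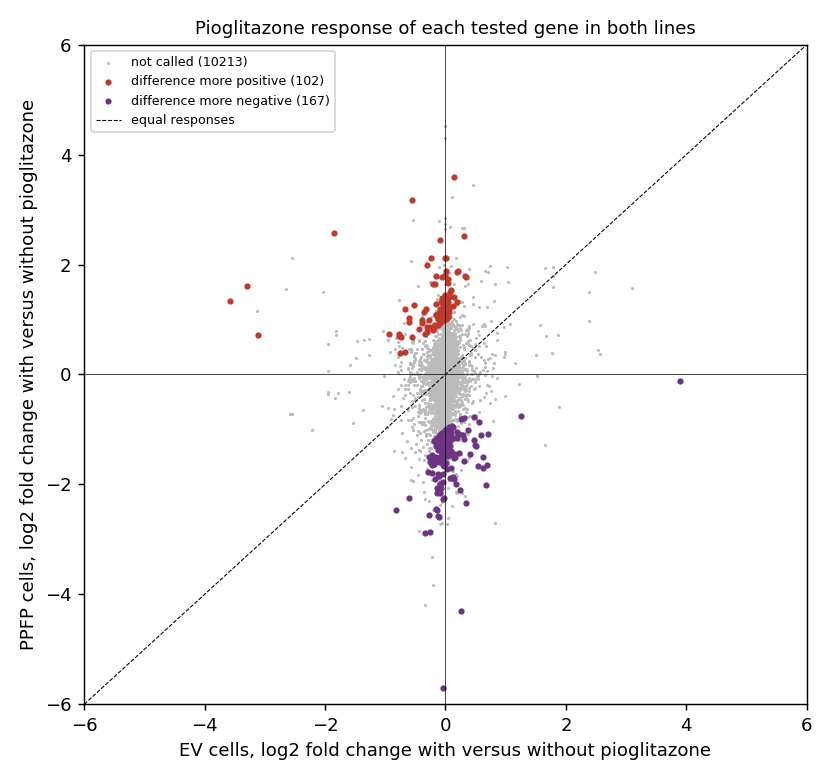
Log2 fold change with versus without pioglitazone of the 10482 tested genes in EV cells (horizontal axis) and in PPFP cells (vertical axis), 3 pairs per line; coloured points are the 269 genes whose responses differed past both limits, 102 more positive (red) and 167 more negative (purple), and the dashed line marks equal responses. The coloured points lie along the vertical axis, with 240 of them below 0.5 in size in EV cells.

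Within PPFP cells the pairs gave much the same response. Over the 8165 genes whose mean reached 10 CPM, the log2 ratios of the pairs correlated at 0.884, 0.894 and 0.904 in PPFP cells and at 0.094, 0.248 and 0.009 in EV cells (Pearson's r across genes, which are not independent replicates, and pairs of a line share no library). The response of PPFP cells correlated with that of EV cells at 0.109 over the same genes. In the fit of all 12 libraries, each line had its own drug term. By these terms 5141 genes (49% of those tested) changed in PPFP cells at any fold. Changes of more than 2-fold were seen in 368 (3.51%), of which 136 rose and 232 fell. In EV cells 14 genes (0.134%) changed, 4 up and 10 (0.0954%) down. None of the 14 changed by more than 2-fold, 729 genes had an unadjusted p under 0.05 in edgeR's test, and 11 of the 14 kept their call in DESeq2. The pairing bears on every one of these counts: without it 97 genes differed in response past both limits, all among the 269, 277 differed at any fold, and 0 changed in EV cells. A count given below as without the pairing comes from that fit. For every gene below whose levels are printed for PPFP cells, the groups of EV cells with and without the drug overlapped, except for Il34 and Pc.

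Proteins of the lipid droplet, the store of neutral fat in a cell, held the gene with the smallest p. Plin2, which coats lipid droplets, stood at 281, 287 and 286 CPM in PPFP cells without and 1028, 1060.1 and 1051 CPM with pioglitazone. In EV cells it stood at 45, 40.3 and 40.0 CPM without and 43.1, 43.5 and 38.7 CPM with the drug. The levels in PPFP cells rose to about the same point in all 3 pairs, while those in EV cells with and without the drug overlapped. The difference was 1.88 (SE 0.05, n = 3 pairs per line), with the smallest adjusted p of all genes tested, 1.95e-10. Of 8 tested lipid droplet genes, 4 responded more positively in PPFP cells and 0 more negatively, with a median difference of 0.86 against -0.00385 over all genes tested. The 4 were Plin2, Fitm2 (0.79, SE 0.06), which helps fat leave the endoplasmic reticulum, G0s2 (0.81, SE 0.07), an inhibitor of fat breakdown, and Plin5 (0.91, SE 0.20), a droplet coat of oxidative tissues. Plin1, the coat protein of adipocytes, rose in PPFP cells from 6.44, 6.98 and 5.91 to 32.9, 46.9 and 43 CPM, but EV cells held at most 0.135 CPM and the difference did not pass the test (2.37, SE 1.11, adjusted p = 0.119). Without the pairing 2 of the 4 passed.

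Genes for breaking down triglyceride moved the same way as the 4 droplet genes. Of 8 tested lipases and lipase regulators, 6 responded more positively in PPFP cells and 0 more negatively, with a median of 0.85 (4 of 6 without the pairing). Angptl4, a secreted inhibitor of lipoprotein lipase, had 177, 187 and 185 CPM without and 1044, 1074 and 1038 CPM with pioglitazone in PPFP cells. Its levels in EV cells were 50.1, 30.3 and 33.8 CPM without and 52.9, 51.3 and 36.8 CPM with the drug, and the EV ratios of the 3 pairs were 0.08, 0.76 and 0.12 on the log2 scale. The difference of 2.21 (SE 0.12, adjusted p = 2.57e-08) is thus read against an EV response in which pair 2 stood apart. Mgll, which splits monoglycerides, rose from 101, 105 and 106 to 243, 276 and 271 CPM in PPFP cells (difference 1.36, SE 0.06). The difference was 0.80 for Pnpla2, the first lipase of stored triglyceride, 0.91 for Lipe, hormone-sensitive lipase, and 0.71 for Lipa, the lysosomal lipase. Ces2c, a carboxylesterase, was also past both limits (1.13).

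Glycerol enters and leaves fat stores through aquaporins and is charged with phosphate for triglyceride synthesis. Gpd1, which makes glycerol 3-phosphate from a glycolytic intermediate, was the most abundant gene among those with a difference above 1.5 (log2): it stood at 949, 914 and 955 CPM without and 3342, 3001 and 3032 CPM with pioglitazone in PPFP cells. In EV cells it stood at 199, 173 and 178 and 196, 173 and 197 CPM, so the groups of that line overlapped (difference 1.69, SE 0.06, adjusted p = 7.61e-10). In the list of 8 glycerol genes, 4 responded more positively, which besides Gpd1 were Gk, glycerol kinase (0.43), Pck2 (0.29) and Gpd2 (0.21), and 2 of the 4 passed without the pairing. Pck2 did not pass without EV pair 3, PPFP pair 2 or PPFP pair 3 (adjusted p from 0.0528 to 0.123), nor Gpd2 without EV pair 2, PPFP pair 2 or PPFP pair 3 (adjusted p from 0.0574 to 0.105). Aqp7, the glycerol channel of adipocytes, had 0 counts in all 6 EV libraries. In PPFP cells it had 13, 14 and 12 counts without and 398, 256 and 315 counts with the drug, and rose by 4.53 (SE 0.17, adjusted p = 1.37e-09). No difference in response can be tested for such a gene, because a fold change in EV cells has no value there.

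**Figure D2:**
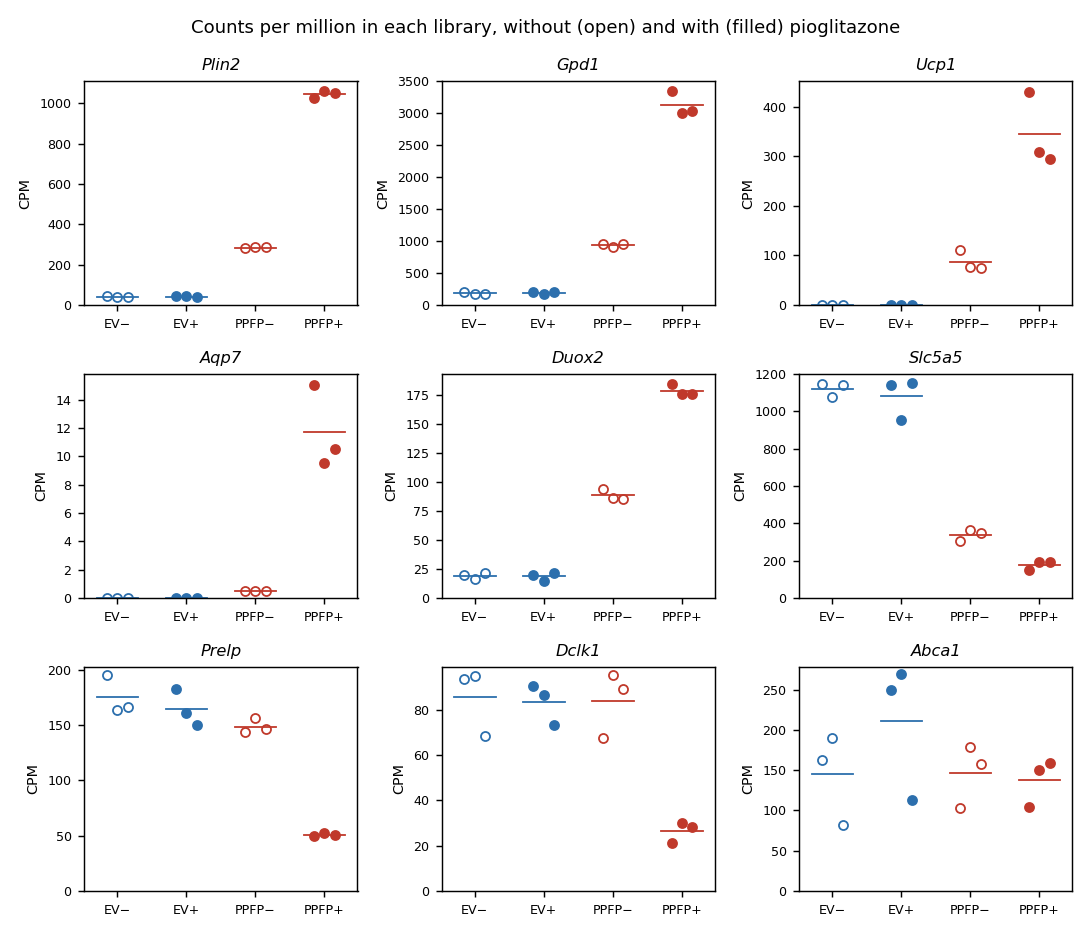
Normalized counts in CPM (vertical axes, from 0) of 9 genes in each of the 12 libraries, EV cells in blue and PPFP cells in red, open without and filled with pioglitazone; bars are means of 3 libraries. Plin2, Gpd1, Ucp1, Aqp7 and Duox2 rose and Slc5a5, Prelp and Dclk1 fell in PPFP cells, with overlapping levels in EV cells, while Abca1 was higher with the drug in every EV pair.

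The same limit touched 92 genes that were at the floor, with at most 3 counts in each EV library. Of these, 37 changed more than 2-fold in PPFP cells (34 up, 3 down), and 2 of the 37, Ikzf1 and Rnase1l1, were called for the difference on EV counts of at most 3. The call of Rnase1l1, whose reads may be split with its near copies, was lost without EV pair 1 (adjusted p = 0.1) or EV pair 2 (adjusted p = 0.0724). Cidec, which fuses lipid droplets, had 8.09, 7.87 and 8.22 CPM without and 18.4, 23.6 and 24.1 CPM with the drug in PPFP cells. Ucp3, a mitochondrial carrier of muscle and brown fat, had 1.84, 3.02 and 2.87 CPM without and 5.76, 8.35 and 8.51 CPM with it, and Pex11a, which divides peroxisomes, rose from at most 0.0428 CPM to 0.606, 0.783 and 0.367 CPM. The groups of PPFP cells did not overlap for these 3 genes. The transporters Slc47a1 (log2 rise of 2.73, SE 0.14) and Slc6a13 (1.08, SE 0.09) also rose in PPFP cells from a state in which EV cells had none to 2 counts. EV cells had next to no reads of these genes with or without the drug, so their drug response there could not be measured. Cidec, Ucp3, Slc47a1 and Slc6a13 were present in PPFP cells without the drug, while Pex11a was all but absent there as well. The genes of this paragraph were chosen after their values were seen.

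Mitochondrial fatty acid oxidation, which burns fat for energy, rose broadly. Of 24 tested genes, 18 responded more positively in PPFP cells and 0 more negatively, 3 of them above 2-fold, with a median difference of 0.44. The median response of PPFP cells was 0.40 and that of EV cells -0.0020, and 10 of the 18 passed without the pairing. Crat, which moves acetyl groups onto carnitine, had 115, 110.4 and 116 CPM without and 279.6, 264 and 264 CPM with the drug in PPFP cells, and 98.3, 82 and 128 and 98.5, 79.4 and 123 CPM in EV cells. Its EV levels varied more between experiments than between drug and vehicle, and the difference was 1.28 (SE 0.05, adjusted p = 8.49e-10). Acaa2, the last enzyme of the mitochondrial spiral, rose from 731, 639.6 and 673 to 1681, 1516 and 1500.3 CPM in PPFP cells (difference 1.17, SE 0.06). Acad11 (1.13), an acyl-CoA dehydrogenase, Acadl (0.79), the long-chain dehydrogenase, and Slc25a20 (0.76), which carries acylcarnitine into mitochondria, followed.

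Ketone body genes split. Of the 6 tested, 2 were more positive and 2 more negative in PPFP cells. Oxct1 (-0.58, SE 0.07), which returns ketone bodies to acetyl-CoA, and Bdh1 (-0.23, SE 0.07) were the more negative ones. Without the pairing 1 positive gene passed and neither of these did (adjusted p = 0.0511 and 0.804), and Bdh1 also did not pass without PPFP pair 1, PPFP pair 3 or EV pair 3 (adjusted p from 0.0871 to 0.0932).

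Peroxisomes shorten very long fatty acids. Of 19 tested peroxisomal lipid enzymes, 8 (42.1%, beside 17.2% of all genes) responded more positively and 3 (15.8%, beside 17.1%) more negatively, 0 above 2-fold, and the median was 0.05, running from -0.0113 without EV pair 2 to 0.135 without PPFP pair 1. The 5 with the smallest p were all positive, among them Abcd3 (0.77, SE 0.05), Ech1 (0.93), catalase (Cat, 0.65) and Hsd17b4 (0.53). Of 16 peroxins, which build the organelle, 5 were more positive (Pex19 0.73, Pex13 0.53 and Pex16 0.51 among them) and 1 more negative. Without the pairing 6 of the 8 enzymes and 3 of the 5 peroxins passed, and 0 of the 4 negative ones.

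Enzymes at the branch between fat and sugar as fuel also differed. Acot2, a mitochondrial acyl-CoA thioesterase, had 26.4, 27.2 and 27.4 CPM without and 101, 124 and 129 CPM with the drug in PPFP cells, against 22.6, 28.8 and 18.1 and 22.4, 27.6 and 19.4 CPM in EV cells. The lowest PPFP library with the drug stood far above the highest without it, and the EV groups overlapped (difference 2.12, SE 0.08, adjusted p = 1.30e-09), although reads of the closely related genes of this family could be split between copies. Acot11, a thioesterase of brown fat, went the other way, from 0.883, 1.04 and 0.942 to 0.379, 0.559 and 0.367 CPM in PPFP cells (-1.12, SE 0.31, and -1.02 with an adjusted p of 0.0695 without PPFP pair 3). Pdk4, which switches off pyruvate dehydrogenase when fat is burned, had 33.3, 38 and 37.3 CPM without and 118, 131 and 127 CPM with pioglitazone in PPFP cells. In EV cells it was higher with the drug in 3 of 3 pairs (0.26, 0.54 and 0.08 on the log2 scale), but with an adjusted p of 0.29, and the difference between the lines was 1.47 (SE 0.09). The kinases Pdk1 (0.64) and Pdk2 (0.23) were more positive, and the opposing phosphatase Pdp1 (-0.65) and the kinase Pdk3 (-0.30) more negative. Of 9 thioesterases 4 were more positive and 1 more negative (1 and 0 without the pairing), with Acot7 at 0.42 and Acot3, a near copy of Acot2, at 0.62, and in the list of 10 pyruvate dehydrogenase regulators and uncoupling proteins 5 and 2 (1 and 1 without the pairing).

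Brown adipocyte genes were few, with 6 of 17 listed genes tested. All 6 rose in PPFP cells, and 4 differed between the lines (1 without the pairing). Ucp1, the heat-producing proton carrier of brown fat, had 3044, 2033 and 1737 counts without and 11367, 8277 and 8833 counts with pioglitazone in PPFP cells. EV cells had between 0 and 4 counts in every library, so the difference of 2.30 (SE 0.75, adjusted p = 0.0327) rests on few reads in EV cells. Without EV pair 1 it was 1.54 (adjusted p = 0.344). Elovl3, a fatty acid elongase, was low throughout, at most 1.64 CPM, with a difference of 4.43 (SE 0.90). The coactivator Ppargc1a (0.38, SE 0.07) and the potassium channel Kcnk3 (0.43, SE 0.07) differed by less. Of 14 tested genes of white adipocytes, 3 (21.4%) were more positive and 1 (7.14%) more negative, near or below the 17.2% and 17.1% of all genes. Cebpa, an adipocyte transcription factor, rose from 54.3, 48.1 and 48.2 to 109, 85 and 89 CPM in PPFP cells (1.08, SE 0.10), and Cebpb, which acts before it, by a difference that missed 2-fold (0.95, SE 0.09). Cfd, the adipocyte protease adipsin, differed by 0.33 (SE 0.06). Adipoq, the hormone adiponectin, fell from 4.34, 4.67 and 4.63 to 1.86, 2.95 and 2.40 CPM in PPFP cells (-0.73, SE 0.24), a difference that did not pass without PPFP pair 1, PPFP pair 3, EV pair 1 or EV pair 2 (adjusted p from 0.0817 to 0.122). Fabp4, Cd36 and Lpl, 3 further targets of PPARG in fat, had at most 0.189 CPM in any library and were not tested. Cebpa was the only white adipocyte gene that passed without the pairing.

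Fatty acid and triglyceride synthesis moved in both directions. Of 24 tested genes, 10 were more positive and 6 more negative (4 and 0 without the pairing). Agpat9, which starts glycerolipid synthesis, rose from 19.6, 22.4 and 21.4 to 39.8, 53.6 and 51.9 CPM in PPFP cells (1.23, SE 0.08), and Agpat3 (0.96, SE 0.04), which adds the next acyl chain, came close to 2-fold. Fads2, a desaturase of polyunsaturated fatty acids, fell from 1100.3, 981 and 1060.0 to 514, 511 and 529 CPM in PPFP cells. Its EV levels were 1154, 827 and 1817 CPM without and 1159, 752 and 1928 CPM with the drug, so that experiments differed more than treatments (difference -1.0, SE 0.06). The desaturase genes went apart, with Scd1 at 0.96 (SE 0.05) and Scd at -1.57 (SE 0.21), and reads could be split between these near copies. In the list of 11 genes of fatty acid uptake and activation, 2 were more positive and 1 more negative, and Dbi, the acyl-CoA binding protein, led (0.63, SE 0.05). The positive share of 18.2% is close to the 17.2% of all genes and the negative share of 9.09% is below their 17.1%, and 0 of the 3 passed without the pairing.

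**Figure D3:**
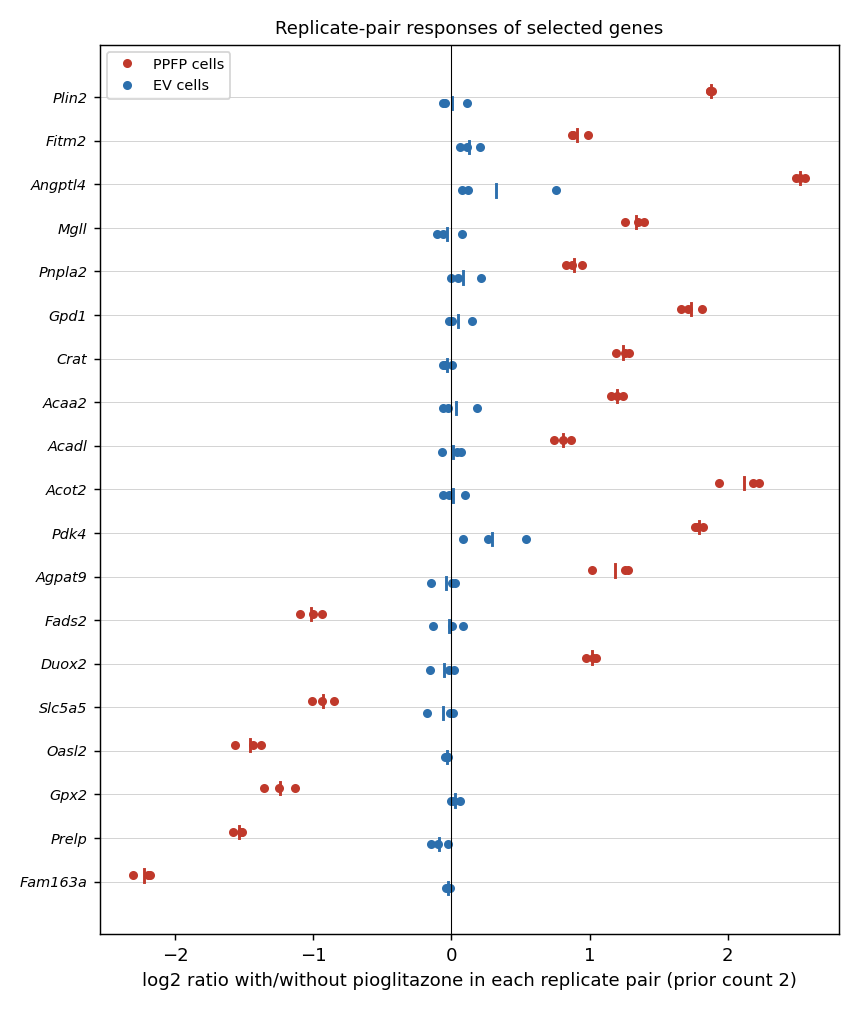
Log2 ratio with versus without pioglitazone in each of the 3 pairs of PPFP cells (red) and EV cells (blue) for 19 genes of lipid use, thyroid function, interferon response and matrix; short bars are means. In every gene shown the 3 PPFP pairs lie on one side of all 3 EV pairs, and Angptl4 and Pdk4 have the most scattered EV pairs.

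Nuclear receptors other than PPARs and RXRs moved in both directions. Nr1h3, the oxysterol receptor LXR alpha, had 3.86, 6.49 and 5.57 CPM without and 8.90, 15.8 and 15.3 CPM with the drug in PPFP cells. EV cells had 3.14, 2.72 and 2.0 and 3.09, 2.54 and 1.82 CPM, with groups that overlapped (1.40, SE 0.15, adjusted p = 1.31e-05, and 0.109 without the pairing). In the list of 23 nuclear receptors beside PPARs and RXRs, Nr1h3 among them, 8 were more positive and 6 more negative (1 and 0 without the pairing). Rarb, a retinoic acid receptor, rose in PPFP cells from 0.478, 0.485 and 0.557 to 1.25, 0.821 and 0.968 CPM (1.39, SE 0.31), and was the one that passed without the pairing (adjusted p = 0.0471). The thyroid hormone receptors went apart, Thrb up (0.52, SE 0.09) and Thra down (-0.57, SE 0.06), as did the glucocorticoid receptor Nr3c1 (0.45) and the mineralocorticoid receptor Nr3c2 (-0.55). Among 18 PPAR and RXR receptors and their partners, 7 were more positive and 0 more negative, the coactivator Ncoa1 (0.42, SE 0.06), Ppargc1a and the corepressor Nrip1 (0.29, SE 0.06) among them. No PPAR or RXR gene itself was among the 7, and 0 of the 7 passed without the pairing. Aldh1a1, which makes retinoic acid, rose from 500.1, 450.1 and 468 to 1046, 996 and 955 CPM in PPFP cells (1.24, SE 0.07).

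Several of the largest positive differences lay outside lipid use. Phospho1, a phosphatase of mineralizing matrix, was at the same level in both lines without the drug, 62.6, 63 and 58.8 CPM in PPFP cells and 64.8, 68.4 and 57.8 CPM in EV cells. With pioglitazone it stood at 286, 263 and 257 CPM in PPFP cells and stayed at 62.3, 75.4 and 52.5 CPM in EV cells (2.14, SE 0.07, adjusted p = 3.35e-10). The anion transporter Slc26a9 (2.36, SE 0.27), the mitochondrial carrier Slc25a34 (3.46, SE 0.63), Palmd (1.86, SE 0.25) and Sh3tc1 (1.96, SE 0.63) were positive at levels of at most 12.2 CPM, and that of Sh3tc1 did not pass without EV pair 2 (1.17, adjusted p = 0.261) or PPFP pair 3 (adjusted p = 0.0533). Without the pairing Slc25a34 passed, and Slc26a9 (adjusted p = 0.0532), Palmd (0.0873) and Sh3tc1 (0.211) did not. Surf4, a cargo receptor of the secretory pathway, was abundant, from 408, 497 and 494 to 967, 1157 and 1145 CPM in PPFP cells (1.23, SE 0.05), as was Lrp6, a Wnt coreceptor, from 137, 162 and 154 to 331, 364 and 357 CPM (1.17, SE 0.05).

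PPARG and RXR bind together on 2 AGGTCA elements that lie on the same strand with 1 base between them. The promoters of the genes called for the difference were searched on both strands, from 250 bases before to 50 bases after the start site, in RefSeq sequences of GRCr8, the build of that table and not the build of the counts. A window counted as a match when at most 2 of the 12 element letters differed. Of 102 genes with a more positive response, 78 had a promoter in the table and 6 (7.69%) held such a match. Of 167 with a more negative response, 120 had a promoter and 3 (2.5%) held one, against 248 (2.91%) of the 8518 tested genes with a promoter and 1263 (3.77%) of all 33469 promoter windows of that table. The matches of 4 of the 6 positive genes, and that of Creb5, the closest among the 269, are shown with 8 bases on each side, 5′ to 3′ on the strand of the match, with the 2 elements in capitals. They describe letters and not measured binding. Within the windows searched, none of the called genes that had a promoter matched the full element: 2 letters differ in each of the first 4, and 1 in that of Creb5. Gpd1, Acaa2 and Scx had no promoter matched by symbol and were not searched.
Crat, chr3:34087302-34087330, minus strand: gacgttcaAGGACAcCGGTCAgacttgga
Ces4a, chr19:49921608-49921636, minus strand: cctccttgGGGTGAcAGGTCAcactatat
Ankrd37, chr16:53001300-53001328, plus strand: gccgccgaAGCTCAaAGGCCAggatatca
Car5b, chrX:34118889-34118917, minus strand: gcaaggagAGGTGAtAGTTCAttcactct
Creb5, chr4:83724010-83724038, plus strand: caatgggcAGGTCAcAGGGCAaggagtag

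The match of Crat began 223 bases before the start site, that of Ces4a 28, that of Ankrd37 199, that of Car5b 129 and that of Creb5 207 bases before it. Ces4a, a carboxylesterase, rose from 8.98, 12.1 and 12.2 to 18.7, 26.9 and 26.9 CPM in PPFP cells (1.08, SE 0.14), and Car5b, a mitochondrial carbonic anhydrase, from 47.8, 47.4 and 53.5 to 94, 94.6 and 94.2 CPM (1.03, SE 0.11). Ankrd37, a hypoxia-responsive gene, rose from 3.86, 4.63 and 4.11 to 6.25, 7.16 and 7.58 CPM (1.08, SE 0.20). That rise was below 2-fold in each pair, so the difference passed 2-fold only together with a fall with the drug in EV cells. Creb5, a transcription factor, went the other way: it fell from 0.368, 0.522 and 0.728 to 0.0757, 0.0373 and 0.167 CPM in PPFP cells, and in EV cells it was lower with the drug in 3 of 3 pairs (-0.66, -0.92 and -0.77 on the log2 scale, adjusted p = 0.193). These 5 genes were chosen by the promoter match after their values were known. Without the pairing Crat and Ces4a passed, and Car5b (adjusted p = 0.0591), Ankrd37 (0.228) and Creb5 (0.306) did not.

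Thyroid genes mostly went down with pioglitazone in PPFP cells. Of 19 tested thyroid differentiation genes, 12 responded more negatively and 4 more positively than in EV cells, with a median difference of -0.32 (2 and 2 without the pairing). Slc5a5, the sodium iodide symporter, had 303, 364 and 349 CPM without and 150.4, 190.4 and 193 CPM with the drug in PPFP cells. In EV cells, where it was more abundant, it had 1148, 1077 and 1144 and 1139.7, 954 and 1151 CPM, which overlap (-0.87, SE 0.06, adjusted p = 1.94e-07). Iyd (-1.30, SE 0.31), which recovers iodide, and Dio1 (-0.79, SE 0.06), which activates thyroid hormone, were more negative as well. Tg was more negative by -0.48 (SE 0.08), and the adhesion protein Cdh16 by -0.79 (SE 0.06). The transcription factors Pax8 (-0.32, SE 0.05) and Nkx2-1 (-0.33, SE 0.05) and the thyrotropin receptor Tshr (-0.14, SE 0.04) differed by less than 2-fold. Tshr did not pass without EV pair 1, PPFP pair 2 or PPFP pair 3 (adjusted p from 0.0771 to 0.0843) or without the pairing (adjusted p = 0.84).

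Part of the hydrogen peroxide generator of the thyroid went the other way. Duox2, the oxidase, had 94.1, 86.6 and 85.3 CPM without and 185, 176 and 176 CPM with the drug in PPFP cells, and 19.5, 16.8 and 21.4 and 19.8, 15 and 21.1 CPM in EV cells (1.06, SE 0.06, adjusted p = 4.92e-08). Duoxa2, its maturation factor, rose from 93, 76.8 and 72.8 to 183, 171 and 163 CPM (1.16, SE 0.08), and Duoxa1 was more positive by 0.84 (SE 0.12). The second oxidase, Duox1, did not pass (difference -0.0038, SE 0.07, adjusted p = 0.978). The monocarboxylate transporter Slc5a8 was also more positive (0.74, SE 0.05, and adjusted p = 0.276 without the pairing). Among 43 glutathione and antioxidant genes, 8 (18.6%, beside 17.2% of all genes) were more positive and 12 (27.9%, beside 17.1%) more negative (2 and 1 without the pairing), and the median difference was 0.0026 (-0.0159 to 0.0238 with single pairs left out). Gpx2, a peroxidase that removes hydroperoxides, fell from 452, 359.5 and 401 to 206, 152 and 157 CPM in PPFP cells (-1.27, SE 0.06, adjusted p = 4.93e-09, and 0.112 without the pairing), Sod3 (-0.54) and Gstt1 (-0.67) were more negative, and Mgst1 (0.60) was more positive.

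Among called genes averaging 1 CPM or more, the 5 negative differences with the smallest adjusted p were those of Prelp, Fam163a, Dclk1, Dpysl2 and Scx. Prelp, a proteoglycan of connective tissue, had 143, 156 and 146 CPM without and 49.9, 52.1 and 50.7 CPM with pioglitazone in PPFP cells. In EV cells it had 195, 164 and 166 and 182, 161 and 149.7 CPM, which overlap (-1.45, SE 0.05, adjusted p = 6.56e-10). Fam163a fell in PPFP cells from 18, 16.3 and 16.5 to 3.60, 3.51 and 3.57 CPM and was 57.9, 57.5 and 70.2 and 56.8, 57.1 and 68.4 CPM in EV cells (-2.22, SE 0.08). Dclk1, a kinase bound to microtubules, fell from 67.5, 95.3 and 89.3 to 21.2, 29.9 and 28.2 CPM in PPFP cells, with log2 ratios of -1.66, -1.67 and -1.66 in the 3 pairs (difference -1.64, SE 0.06). Scx, the tendon transcription factor scleraxis, fell from 36.5, 34.4 and 37.5 to 9.62, 9.96 and 9.41 CPM (-1.73, SE 0.08), and Dpysl2, a cytoskeletal protein of growing axons, from 607, 514 and 529 to 257, 224 and 215 CPM (-1.24, SE 0.05).

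Many of the largest negative differences were in genes that PPFP cells expressed little, although Fam163a and Serpinb5 were not of this kind. Wnk2, a kinase that restrains growth signalling, had 0.956, 1.79 and 1.58 CPM without and 0.151, 0.336 and 0.234 CPM with the drug in PPFP cells, and 11.3, 12.4 and 8.03 and 11.5, 10.1 and 7.51 CPM in EV cells (-2.45, SE 0.29). Grrp1 (-2.62, SE 0.34), the lysosomal peptide transporter Abcb9 (-2.29, SE 0.24), Aebp1 (-1.96, SE 0.29) and the interleukin receptor chain Il12rb1 (-1.93, SE 0.40) were of this kind, and so were the matrix genes Matn4 (-2.04, SE 0.42) and Col13a1 (-2.03, SE 0.66). The levels of Trim29 in PPFP cells were 3, 4 and 9 counts without and 0 counts with the drug, and Cldn9 had 3, 14 and 7 and 0, 2 and 2 counts, so these differences rest on few reads. Trim29 did not pass without PPFP pair 3 (adjusted p = 0.0623), nor Cldn9 without PPFP pair 2 (adjusted p = 0.077), nor Col13a1 without PPFP pair 1, PPFP pair 2 or EV pair 1 (adjusted p from 0.0512 to 0.16). Rmrp, the RNA of an RNA-processing enzyme, was carried by 1 library: PPFP cells without the drug had 10, 2 and 354 counts, with it 13, 2 and 6, and EV cells 8, 16 and 13 and 16, 18 and 13. Without the third PPFP pair the Rmrp difference went from -4.56 to 0.0988. Serpinb5 was called on EV counts of 0, 0 and 0 without and 3, 2 and 1 with pioglitazone, and its response in PPFP cells did not pass the test (-0.13, adjusted p = 0.124). Its difference did not pass without EV pair 1, EV pair 2 or PPFP pair 2 (adjusted p from 0.0508 to 0.104). Without the pairing Wnk2, Grrp1, Abcb9 and Matn4 passed. Aebp1 (adjusted p = 0.0788), Il12rb1 (0.0788), Col13a1 (0.076), Trim29 (0.101), Cldn9 (0.195), Serpinb5 (0.0904) and Rmrp (0.405) did not.

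Of 20 tested collagens and laminins, 5 (25%, beside 17.2% of all genes) were more positive and 6 (30%, beside 17.1%) more negative, with a median of -0.24 (1 and 0 without the pairing). Col4a3, a basement membrane collagen, fell from 5.37, 16.5 and 11 to 1.89, 5.0 and 5.51 CPM in PPFP cells (-1.33, SE 0.14), and Col16a1 from 31.9, 68.2 and 59.8 to 16.1, 30.2 and 33 CPM (-1.0, SE 0.09). Both varied more than 2-fold between PPFP experiments at the same treatment, and without the pairing their adjusted p was 0.548 and 0.361. Lama5 (-0.44) and Lamb2 (-0.37), chains of epithelial laminins, were more negative and Lamc1 (0.30) more positive. The integrin chain Itgb4, which anchors cells to laminin, fell from 28.9, 42.7 and 41.1 to 14.5, 17.9 and 19.8 CPM (-1.15, SE 0.08), while Itga1, a collagen receptor chain, rose from 24.2, 27.7 and 27.4 to 43.8, 47.3 and 46.1 CPM (0.84, SE 0.10). Vim, an intermediate filament protein, was more negative (-0.50, SE 0.05) and Pkp2, of desmosomes, more positive (0.47, SE 0.05). Without the pairing Itga1 passed, and Itgb4 (adjusted p = 0.106), Vim (0.425) and Pkp2 (0.0814) did not. Of 12 integrin chains, 2 (16.7%) were more positive and 3 (25%) more negative. Of 18 genes of epithelial junctions and epithelial-mesenchymal transition, 2 (11.1%) were more positive and 6 (33.3%) more negative.

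Interferon-stimulated genes made up the list with the most negative differences by count (61.0% of its tested genes, against 63.2% in the thyroid list). Of 41 tested, 25 responded more negatively in PPFP cells, 6 of them above 2-fold, and 5 more positively. In the fit without PPFP pair 1, 2 genes of the list were past both limits, and 3 were without PPFP pair 3. The median difference was -0.33, from a median response of -0.37 in PPFP cells and 0.0049 in EV cells. Oasl2, an antiviral protein of the OAS family, had 12, 12.5 and 11.3 CPM without and 4.01, 4.77 and 4.11 CPM with the drug in PPFP cells, and 12.4, 9.23 and 15.5 and 12.2, 9.03 and 15 CPM in EV cells (-1.44, SE 0.11, adjusted p = 3.50e-07). Gbp2, a GTPase that attacks pathogens, fell from 101, 121 and 127 to 42.4, 65.4 and 68 CPM in PPFP cells (-1.07, SE 0.11). The other 4 above 2-fold were Oas2 (-1.89), Oasl (-1.25), Mx1 (-1.06) and Oas1a (-1.03), and the copies of these families can share reads. The ubiquitin ligase Dtx3l (-0.76) and Parp14 (-0.75) were more negative too. Irf8, an abundant exception, rose from 557, 505 and 485 to 918, 914 and 894 CPM in PPFP cells (0.62, SE 0.05), against 230.3, 154 and 164 and 271, 172 and 188 CPM in EV cells. Without the pairing 5 of the 25 and 0 of the 5 passed. The summed level of the list did not fall with the drug in PPFP cells: it lay between 3006 and 3111 CPM without and 3058 and 3150 CPM with it.

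Chemokine, complement and prostaglandin genes are given beside the 17.2% of all genes that were more positive and the 17.1% that were more negative. Cxcl16, a chemokine, fell from 63.6, 58.4 and 65 to 35.9, 33.2 and 31.3 CPM in PPFP cells (-0.84, SE 0.08), and Csf1, a macrophage growth factor, from 67.7, 69.3 and 69.9 to 43.2, 41.1 and 43.2 CPM (-0.67, SE 0.06), in a list of 16 with 1 (6.25%) more positive and 4 (25%) more negative (1 and 1 without the pairing). The positive one was Il34, a ligand of the same receptor as Csf1, which rose from 7.72, 8.62 and 7.71 to 12.9, 14.1 and 13.1 CPM in PPFP cells (1.68, SE 0.44, and 1.43 with an adjusted p of 0.0655 without EV pair 3). That rise was below 2-fold in each pair, so the larger part of the Il34 difference was a fall with the drug in EV cells. Masp1, which starts the lectin pathway of complement, fell from 8.90, 8.43 and 7.67 to 2.69, 2.54 and 2.87 CPM (-1.41, SE 0.19, and adjusted p = 0.0588 without the pairing), in a list of 14 complement genes with 1 (7.14%) more positive and 3 (21.4%) more negative (0 without the pairing). Prostaglandin genes split in 4 (19.0%) more positive and 7 (33.3%) more negative of 21 (0 and 2 without the pairing). Pla2g5, a secreted phospholipase that frees arachidonic acid, fell from 6.51, 6.83 and 8.14 to 2.04, 2.24 and 1.87 CPM (-1.68, SE 0.14), and Ptgs1, cyclooxygenase-1, from 159, 167 and 172 to 87.1, 90.4 and 90.7 CPM (-0.85, SE 0.04). Ptges, which makes prostaglandin E, rose from 5.96, 9.78 and 10.7 to 11.6, 20.2 and 19.9 CPM (0.93, SE 0.09, adjusted p = 0.371 without the pairing).

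In the growth factor, Notch and Wnt lists more genes were more negative than more positive, beside 17.1% and 17.2% of all genes. Of 19 IGF and FGF pathway genes, 6 were more negative and 2 more positive (2 and 0 without the pairing). The receptors Fgfr1 (-0.53, SE 0.05), Fgfr2 (-0.62, SE 0.05) and Fgfr3 (-0.48, SE 0.09) were all more negative. Of 16 Notch genes 5 were more negative and 1 more positive (1 and 0 without the pairing), while the list's median difference was 0.01 and ran from -0.05 to 0.05 with single pairs left out. The receptor Notch1 fell from 31.2, 40.3 and 35.5 to 15.3, 19.1 and 20.7 CPM in PPFP cells (-0.91, SE 0.10) and its modifier Lfng from 6.69, 7.28 and 6.94 to 2.99, 3.69 and 3.27 CPM (-0.92, SE 0.12). In the Wnt list 3 of 22 were more positive and 7 more negative. Wnt11 (-0.74), Fzd1 (-0.54) and Fzd2 (-0.72) were more negative and Lrp6 and Axin2 (0.54), a feedback gene of the pathway, more positive, and 1 in each direction passed without the pairing. Tgfb3 (-0.74), Tgfb2 (-0.68), Smad7 (-0.64) and Id3 (-0.38) were more negative in a list of 42 BMP and TGF-beta genes with 9 (21.4%) more positive and 11 (26.2%) more negative, beside 17.2% and 17.1% of all genes (1 in each direction without the pairing). Etv4, a transcription factor downstream of MAPK, rose from 9.31, 8.21 and 8.18 to 17.4, 17.5 and 19.9 CPM (1.24, SE 0.15) in a list of 19 MAPK feedback genes with 9 more positive and 3 more negative (1 and 0 without the pairing). Bmf, which promotes cell death, fell from 16.6, 24.7 and 26.2 to 8.29, 11 and 11.1 CPM (-0.98, SE 0.09) and Bcl2l11, of the same class, from 5.08, 6.72 and 6.08 to 3.33, 3.84 and 3.74 CPM (-0.83, SE 0.14), and 7 of 18 apoptosis regulators were more negative and 0 more positive (0 without the pairing). Of 20 immediate early genes, 4 (20%, near the 17.2% of all genes) were more positive, Klf10 (0.41) with the smallest p, and 7 (35%, beside 17.1%) more negative, among them Junb (-0.62) and Ctgf (-0.47), and 0 passed without the pairing.

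Genes of synapses and axons, which epithelial cells also express in part, were read against the 17.2% of all genes that were more positive and the 17.1% that were more negative. Of 22 synaptic vesicle and exocytosis genes, 9 were more negative and 0 more positive, with a median of -0.27. Rab3a, of regulated secretion, fell from 37.6, 47.5 and 41.6 to 21.3, 24.4 and 25.3 CPM in PPFP cells (-0.82, SE 0.07) and Syt5, a calcium sensor, from 9.45, 9.40 and 9.38 to 3.82, 4.55 and 4.74 CPM (-1.01, SE 0.10). Of 43 axon guidance genes, 8 (18.6%) were more positive and 14 (32.6%) more negative, with Sema4b (0.79) and Sema5a (0.71) more positive and Sema4c (-0.68) and Sema3f (-0.54) more negative. Without the pairing, 1 of the 9 synaptic genes passed, and 3 more positive and 2 more negative axon genes did, so the balance of the axon list turned. Ntn3, a secreted guidance cue, was past both limits (-1.20, SE 0.28, and adjusted p = 0.433 without the pairing).

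**Figure D4:**
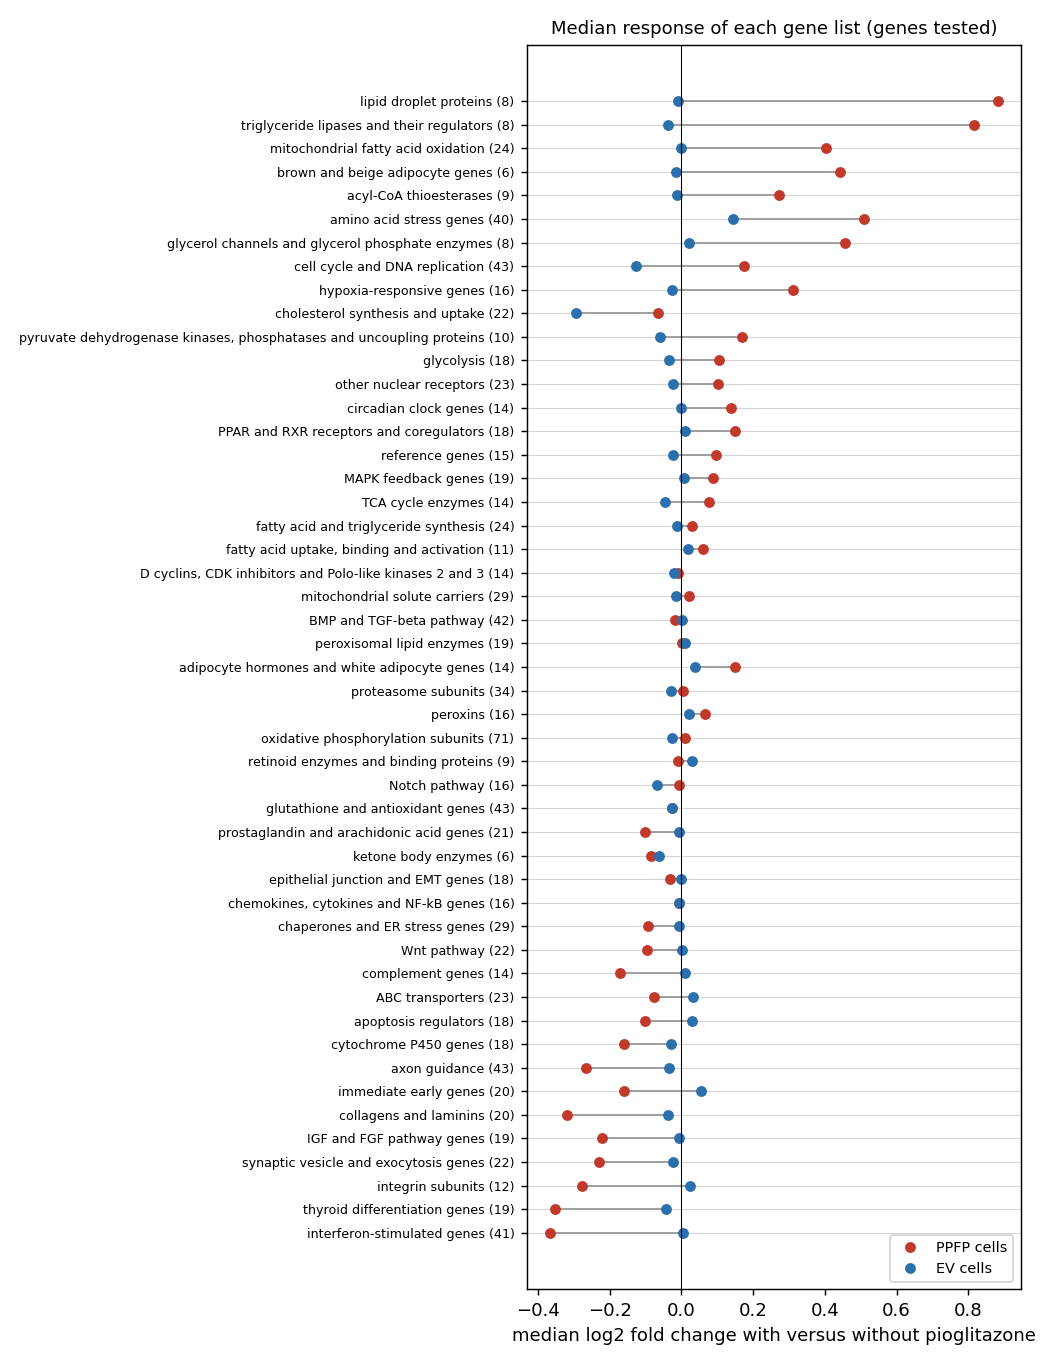
Median log2 fold change with versus without pioglitazone of 49 gene lists (genes tested in brackets) in PPFP cells (red) and EV cells (blue), ordered by the median difference. Lipid droplet proteins (0.88 in PPFP cells, -0.01 in EV cells) stand at the top and interferon-stimulated genes (-0.37 and 0.0049) at the bottom, and cholesterol genes (-0.07 and -0.29) and cell cycle genes (0.17 and -0.13) have EV medians away from 0.

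The EV median was farthest from 0 in 3 lists. Cell cycle and DNA replication genes differed in 35 of 43 cases, all more positive, with a median of 0.35 and 0 above 2-fold. PPFP cells had a median response of 0.17, EV cells one of -0.13. By pair it was 0.12, 0.26 and 0.15 in PPFP cells and -0.04, -0.33 and -0.05 in EV cells, so EV pair 2 stood apart, and the median difference without it was 0.24. The summed level of the list varied between experiments by more than it did with the drug, with sums between 2456 and 6511 CPM over EV libraries and between 4799 and 8978 CPM over PPFP libraries, and without the pairing 0 of the 43 passed. Cdk2, a kinase of the G1/S step, had the smallest p, from 341, 222 and 214 to 548, 374 and 366 CPM in PPFP cells and 98.8, 73.1 and 115 to 96.7, 64.9 and 113 CPM in EV cells (0.81, SE 0.05). Plk3, a stress-induced Polo-like kinase outside this list, rose from 12.7, 14.8 and 14.9 to 28.1, 36.3 and 32.5 CPM in PPFP cells (1.28, SE 0.13).

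Amino acid stress genes, targets of ATF4, had positive medians in both lines: 28 of 40 were more positive in PPFP cells and 2 more negative, from a median response of 0.51 in PPFP cells and 0.14 in EV cells. Stc2, a secreted glycoprotein, rose from 21.4, 23.5 and 25.2 to 42.9, 50.8 and 51.7 CPM (1.01, SE 0.06), and the serine synthesis enzymes Phgdh (0.47) and Psat1 (0.43) and the transporter Slc38a2 (0.61) followed. Cbs, which makes cystathionine, was an exception (-0.84, SE 0.09) and the only member that passed without the pairing. Hypoxia-responsive genes were more positive in 9 of 16 and more negative in 0, among them Ankrd37 (1.08, SE 0.20) and Ndrg1 (0.74, SE 0.05), and 0 passed without the pairing. Of 29 chaperones and ER stress genes, 6 (20.7%, near the 17.2% of all genes) were more positive, among them mitochondrial Hspd1 (0.54), and 11 (37.9%) more negative, among them Xbp1 (-0.42), Calr (-0.38) and Hspa5 (-0.35). Of these 17 genes 0 passed without the pairing.

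The cholesterol pathway was the third list, and here the median change in EV cells was the larger one. Of the 10 genes that fell in EV cells, 9 act in the synthesis of cholesterol or its precursors. Hmgcs1, which makes HMG-CoA, had 251, 160.0 and 304 CPM without and 163, 89.6 and 244 CPM with pioglitazone in EV cells, and 101, 94.9 and 103 and 82.3, 90.7 and 97.9 CPM in PPFP cells. It was lower with the drug in 3 of 3 EV pairs (-0.62, -0.84 and -0.32 on the log2 scale), with a log2 fold change of -0.58 (adjusted p = 0.00775) in EV cells and -0.14 (adjusted p = 0.14) in PPFP cells. Others, with their log2 fold changes, were Acat3 (-0.41 in EV cells, 0.08 in PPFP cells), Fdft1 (-0.38, -0.21), Cyp51 (-0.38, -0.05), Msmo1 (-0.37, -0.11), Fdps (-0.34, -0.04), Mvd (-0.29, -0.18) and Lss (-0.25, 0.08). The difference passed the test in 7 of the 9, the exceptions being Fdft1 (adjusted p = 0.114) and Mvd (adjusted p = 0.222). Over the list, 10 of 22 genes were more positive in PPFP cells and 0 more negative, with a median response of -0.29 in EV cells and -0.07 in PPFP cells. By pair the median was -0.27, -0.43 and -0.16 in EV cells and -0.21, 0.03 and -0.06 in PPFP cells, which overlap. In each line 8 of the 22 responses passed the test, and in PPFP cells 7 of these were falls and 1 a rise. The median difference was 0.27, or 0.15 without EV pair 2, and 0 of the 10 passed without the pairing. Hsd17b7, a later enzyme of the pathway, rose in PPFP cells from 47.3, 39.2 and 41.5 to 76.1, 72.2 and 70.4 CPM and was the only member past both limits (1.09, SE 0.10). Its rise was below 2-fold in each PPFP pair, so the difference passed 2-fold only together with a fall in EV cells.

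The sterol efflux pump Abca1 gave the smallest p in EV cells. It had 162, 191 and 81.5 CPM without and 250.4, 269 and 113 CPM with the drug there, a rise of 0.54 (SE 0.05, adjusted p = 0.000395) seen in 3 of 3 pairs. In PPFP cells it had 103, 179 and 158 CPM without and 104, 151 and 159 CPM with the drug, and the difference was -0.61 (SE 0.07, adjusted p = 1.37e-05). Abcg1, a pump of the same pathway, rose in both lines, by 0.30 in EV cells and 1.06 in PPFP cells (0.75, SE 0.08, adjusted p = 5.35e-06). The EV changes were small beside the spread between experiments: EV levels of Abca1 without the drug ranged from 81.5 to 191 CPM, and without the pairing 0 of the 14 genes passed and the adjusted p of the Abca1 difference was 0.734. Without EV pair 1 or without PPFP pair 3, 1 of the 14 passed, and in a fit of the EV libraries alone 1 gene passed.

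**Figure D5:**
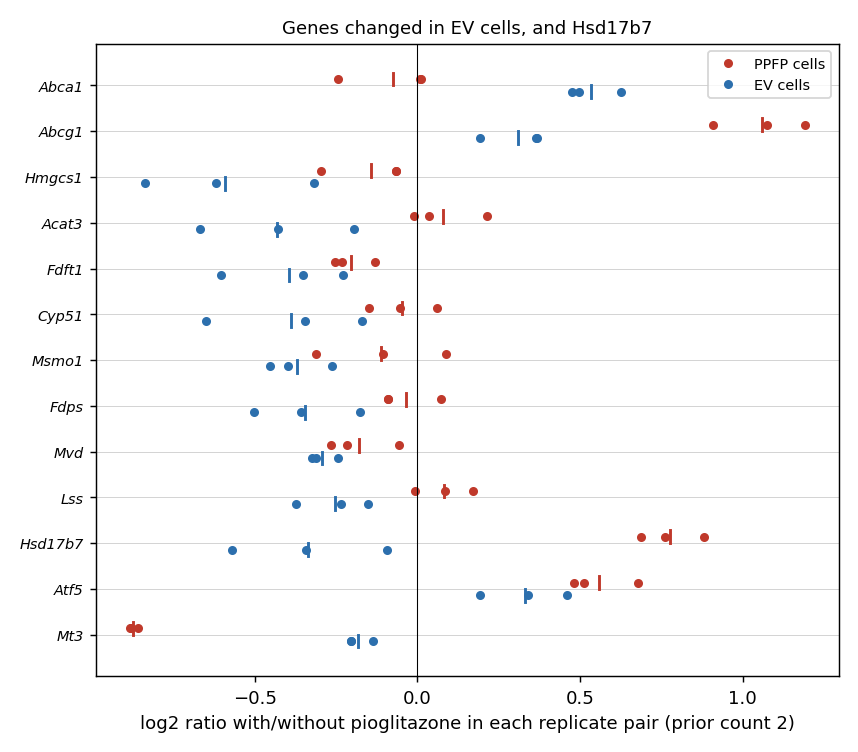
Log2 ratio with versus without pioglitazone in each of the 3 pairs of PPFP cells (red) and EV cells (blue) for 12 of the 14 genes that changed in EV cells and for Hsd17b7; short bars are means. All 3 EV pairs of each cholesterol gene lie below 0. The PPFP pairs lie nearer to 0 or on both sides of it, and those of Hsd17b7 lie above 0.

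Few genes answered alike in both lines. Of the 14 genes changed in EV cells, 6 also passed the test in PPFP cells, all 6 in the same direction and 0 in opposite directions. Atf5, a transcription factor of the amino acid response, rose by 0.34 in EV cells and 0.56 in PPFP cells. Mt3, a metallothionein, stood at 215, 179 and 186 CPM in EV cells without and 186, 156 and 169 CPM with the drug, and fell more steeply in PPFP cells, from 48.9, 37.8 and 39.6 to 26.5, 20.8 and 21.5 CPM (-0.69, SE 0.05, adjusted p = 3.37e-07).

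Differences in energy metabolism, proteasome and reference genes stayed below 2-fold. Of 71 oxidative phosphorylation subunits, 12 (16.9%, beside 17.2% of all genes) were more positive and 0 more negative, at most by 0.36 (Cycs, cytochrome c), with a median of 0.04 (0.0275 to 0.0663 with single pairs left out), and 0 of the 12 passed without the pairing. Of 34 proteasome subunits, 3 were more positive and 1 more negative. Psmb2 had the largest difference of the 4 (0.19, SE 0.05), and did not pass without EV pair 1 or PPFP pair 2 (adjusted p = 0.0572 and 0.0585), and each of the other 3 did not pass in at least 2 of the 6 fits with a pair left out. Of 15 reference genes of the kind used to normalize assays, 4 were more positive and 1 more negative, with Hprt1 at 0.36 (SE 0.06) and Gusb at -0.22 (SE 0.05), and 0 proteasome or reference genes passed without the pairing. In glycolysis 9 of 18 (50%) were more positive, among them the lactate exporter Slc16a3 (0.60, SE 0.09) and Pfkl (0.38, SE 0.05), and 1, the muscle phosphofructokinase Pfkm (-0.59, SE 0.05), more negative and the only one to pass without the pairing. In the TCA cycle list 6 of 14 were more positive and 1 more negative. The anaplerotic enzyme Pc, pyruvate carboxylase, had the largest difference, from 400.1, 401 and 387 to 581, 585 and 574 CPM in PPFP cells, against 109, 112 and 108 CPM without and 102, 98 and 105 CPM with the drug in EV cells (0.66, SE 0.05). It was the only one of 7 TCA cycle genes with a difference that passed without the pairing.

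Transporters, detoxifying enzymes and clock genes gave a mixed picture. Of 23 ABC transporters 5 (21.7%, beside 17.2% of all genes) were more positive and 9 (39.1%, beside 17.1%) more negative (1 in each direction without the pairing). Abcc4, which exports prostaglandins and cyclic nucleotides, rose from 58.4, 69.8 and 66.3 to 119, 127 and 128 CPM in PPFP cells (0.91, SE 0.05), and Abca2 (-0.55, SE 0.06) was more negative. Of 18 cytochrome P450 genes, 1 (5.56%) was more positive, the sterol enzyme Cyp51 (adjusted p = 0.0726 without PPFP pair 2), and 4 (22.2%) more negative, among them Cyp3a9 (-0.75, SE 0.12), Cyp4f5 (-0.69, SE 0.12) and Cyp27a1, which oxidizes sterols (-0.58, SE 0.08). Of 14 clock genes 5 were more positive, with Npas2, a partner of Bmal1, at 0.71 (SE 0.10) and Nfil3 at 0.46 (SE 0.06), and 2 more negative, with Per1 at -0.39 (SE 0.10, and adjusted p = 0.0563 without PPFP pair 2), and 0 genes of these 2 lists passed without the pairing. Of 29 mitochondrial solute carriers 8 (27.6%) were more positive and 5 (17.2%, the share of all genes) more negative (2 and 0 without the pairing). Slc25a25, a calcium-regulated carrier of ATP (0.70, SE 0.08), and Slc25a42, which brings in coenzyme A (0.66, SE 0.10), were more positive, and the glutamate carrier Slc25a22 (-0.51, SE 0.05) more negative. Among D cyclins and cell cycle inhibitors, 5 of 14 were more positive, with Gadd45g (0.77) and Ccnd2 (0.45) beside Plk3, and 5 more negative, with Gadd45b at -0.41, and 2 of the positive ones passed without the pairing.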

How the data were processed

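RNA-seq was measured in 12 libraries, 3 per group. Per the study's methods and processing notes, the authors aligned reads to the rat genome rn4 with TopHat2 (2.0.11) and counted reads per gene with HTSeq (0.6.1p1), and the deposited table holds these unnormalized counts for 16816 gene symbols, 3447 of them without a read. Gene symbols are those of the file. Total counts ran from 23724703 to 35240176 per library, with 3 pairs per line. No library pair of 66 held identical values.

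Genes were kept by edgeR's filterByExpr over the 4 groups (10482), scaled by TMM, and compared by the quasi-likelihood test of edgeR (edgeR 4.0.16, R 4.3.3) with Benjamini-Hochberg adjustment over all 10482 genes. The model held each line-by-replicate pair as a block and a drug term per line, and the tested contrast was the response of PPFP cells minus that of EV cells. A gene was called at an adjusted p under 0.05 and a difference above 1 (log2). Every adjusted p in the text is from this test, and "without the pairing" means the same fit with no replicate block. The replicate numbers were taken to pair libraries within a line. Deviations from the group means of same-numbered libraries correlated at 0.743, 0.464 and 0.432 in PPFP cells and at 0.530, 0.729 and 0.774 in EV cells. Between lines they correlated between -0.378 and 0.316. Different-numbered libraries of a line correlated between -0.639 and 0.535 in PPFP cells and between -0.686 and -0.042 in EV cells. PPFP replicate 2 without the drug correlated more with replicate 3 with it (0.535) than with replicate 2 (0.464). PPFP replicate 3 without the drug correlated with replicate 2 with it at 0.350. The numbering of PPFP pairs 2 and 3 is thus not borne out by these values. The study's methods state 3 independent experiments.

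CPM values use TMM-scaled library sizes, and log2 pair ratios a prior count of 2. A floor is at most 3 counts in every library of a group. Fitted fold changes of genes at the floor depend on the prior count. The blocked fit was also run on counts simulated with the same pair blocks and fitted spread, which cannot show whether the pairing itself holds. Genes were named by a rule: among genes averaging 1 CPM or more, the 12 largest and 12 smallest differences among called genes, the 5 with the smallest adjusted p in each direction, 5 genes changed in both lines the same way and 5 oppositely (0 found), 3 led by EV cells, and up to 5 members of each of 50 gene lists. Further members past both limits, genes at the EV floor and genes with a promoter match were named after their values were seen. The comparison, the lists and the rule were chosen with earlier results of these data known. Promoters are RefSeq sequences of GRCr8, matched by symbol to 8518 of the 10482 genes. The alternatives were no block, a block shared by both lines, other tests (likelihood ratio, DESeq2 1.42.0, limma-voom, limma 3.58.1), other scalings, other filters and leaving out each pair. Results for some genes are not reported here. A comparison with PPFP binding peaks was not run, since no rn4 gene positions were at hand.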

Additional observations from a re-analysis of the deposited data

Results flagged for a closer look

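The response to pioglitazone differed between the lines, by the test of the difference itself, for 269 genes. Of the 14 genes that changed in EV cells, 11 also differed in response, and 10 of these are given. Mt3 (-0.69) and Abca1 (-0.61) were more negative in PPFP cells. Abcg1 (0.75), Acat3 (0.49), Hmgcs1 (0.44), Lss (0.33), Cyp51 (0.33), Fdps (0.30), Msmo1 (0.26) and Atf5 (0.22) were more positive. Without the pairing 0 of these 10 differences passed (adjusted p from 0.0672 to 0.974). Atf5 also did not pass without EV pair 2, EV pair 3 or PPFP pair 3 (adjusted p from 0.0548 to 0.132), nor Cyp51 without PPFP pair 2 (adjusted p = 0.0726). No group has 4 or more libraries, so single libraries were not tested as outliers.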

How the results depend on the processing

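The block by replicate pair mattered most. With no replicate block, 97 genes were called (46 more positive, 51 more negative), 277 differed at any fold, 1154 genes changed in PPFP cells and 0 did so in EV cells. With a block shared by both lines, the counts were 98 (43 and 55), 338, 1314 and 0. All 97 and all 98 were among the 269. The other tests called 312 (likelihood ratio), 207 (DESeq2) and 290 genes (limma-voom), of which 268, 200 and 258 were among the 269, and DESeq2 found 2349 at any fold. Without genes that have a group at the floor, 253 of the 269 remain. Other scalings called 268 and 271 genes, no filter 266, and a minimum of 10 counts in every library 169 (97 more negative), which removes genes low in one group. Leaving out each pair gave between 228 and 267 calls, 197 to 229 of them among the 269. The 14 genes changed in EV cells became 42 with the likelihood ratio test, 2 with library size alone, 31 with no filter, 1 with EV libraries only and between 1 and 20 when a pair was left out; the causes were not tested. Over the 276 named genes, 3636 of the alternative values kept direction and call, 458 lost the call, 18 gained one and 2 reversed: without PPFP replicate 3, Rmrp went to 0.0988, and without EV replicate 2, Pparg went to 0.161, and over the left-out pairs the Rmrp difference ran from -6.02 to 0.0988 and that of Pparg from -0.38 to 0.16. Genes under about 1 CPM are limited by depth. The comparison with binding peaks was not run. Fits of one line's libraries alone and counts without genes at the floor were added after seeing the data.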
